A study of Homo sapiens with 6 samples.

Results

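The genes described here are 36 human genes that move, sense or store zinc, copper and iron, out of 60708 gene identifiers counted in U2OS cells. They comprise the 10 SLC30 zinc exporters, 14 SLC39 zinc importers, the zinc sensor MTF1, 6 copper genes and 5 iron genes. They were chosen by family and function, but the list was drawn up with the differences between inhibitor-treated and control cells already in view, SLC30A2 among them. Differences between the groups are therefore given as a description, with their errors and without p-values, and a list count supports nothing by itself.

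U2OS is an established human osteosarcoma line, here wild-type, grown in medium with serum. Control cells received DMSO alone, the solvent. Treated cells, called PARGi, received 25 µM PDD00017273, which blocks PARG, the hydrolase that takes chains of poly(ADP-ribose) apart. Both groups were kept for 4 days and gave 3 libraries each, described by the submitters as biological replicates; nothing in the labels says which replicates shared a culture or a day. RNA was extracted in bulk, so a change in every cell and a larger change in some of the cells cannot be told apart, and neither can fewer cells of a kind and less RNA per cell.

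Zinc, copper and iron are essential cofactors that are toxic when free, and cells hold them within narrow limits. SLC30 proteins carry zinc out of the cytosol, across the plasma membrane or into organelles, and SLC39 proteins carry it into the cytosol. MTF1 is a transcription factor activated by zinc; it binds short DNA motifs called metal response elements and turns on metallothioneins, which bind zinc, and the exporter SLC30A1. Iron works differently: iron regulatory proteins bind hairpins in messenger RNAs, where they block translation of ferritin and protect the messenger of the transferrin receptor.

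Libraries held 60286931 to 80605145 counts, and the trimmed-mean (TMM) scaling factors stayed between 0.9953 and 1.007. Levels below are TMM-scaled CPM, that is, read counts divided by the scaled size of the library. Members are ranked against each other by level only per kilobase of exon. Cell type markers and genes near SLC30A1 and SLC30A2 are given in plain CPM, without regard to length. A gene is called where edgeR's quasi-likelihood test, adjusted over the 20409 genes tested, passed 0.05. Of 7 markers of a mesenchymal, osteoblast-lineage line, all were present in both groups, from 7.41 CPM for COL1A2 in PARGi to 4409 CPM for COL1A1 in PARGi. None of 12 markers of epithelial, blood, endothelial or liver cells had a group mean above 3.53 CPM, the level of EPCAM in DMSO. Among the markers, COL1A2 (-0.80), RUNX2 (-0.27) and SPARC (-0.083) were called lower, and THY1 (0.26) and the epithelial CDH1 (0.67) higher, as log2 fold changes; whether this has a part in the results below was not tested.

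The clearest differences lay among the zinc exporters, where the plasma membrane exporter SLC30A1 rose 1.57-fold and the vesicle transporter SLC30A2 rose 4.60-fold from a very low level. Among the SLC39 importers 3 were called higher and 2 lower; the largest of these differences, in SLC39A12, rests on very few reads. MTF1 itself was not called, and neither were ferritin or the transferrin receptor. In all, 33 of the 36 members had enough counts to be tested and 12 were called, 8 higher and 4 lower. Over all tested genes 24.3% were called, 13.2% as higher and 11.0% as lower in PARGi. The median log2 fold change of the 33 was 0.024, beside -0.0070 for all genes tested. The 12 called members had groups that did not overlap, as did 2 others that were not called, SLC30A4 and SLC39A13; non-overlapping groups were found for 38.0% of all tested genes. Only 5 members were both called and changed at least 1.2-fold (8.27% of all tested genes): SLC30A1, SLC30A2, SLC30A3, SLC39A8 and SLC39A12.

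**Figure D1:**
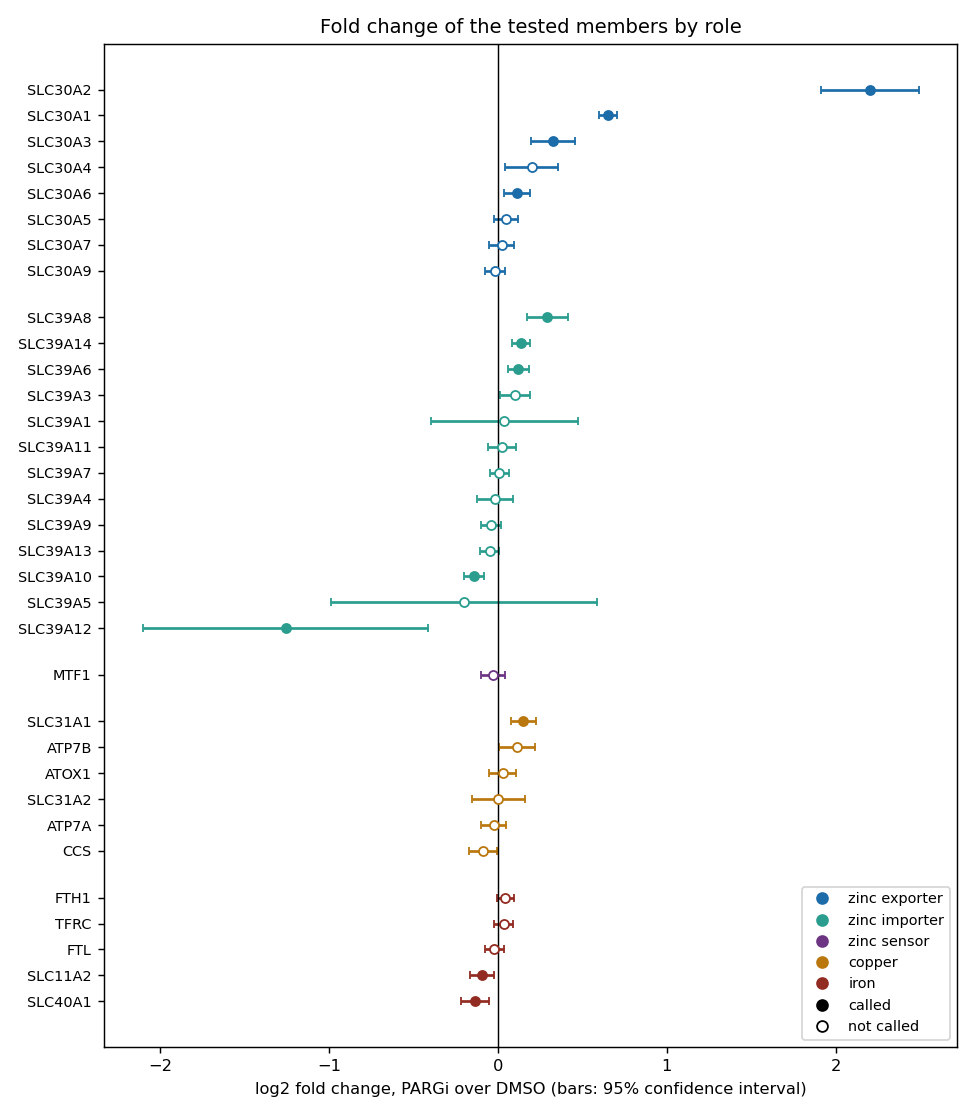
Log2 fold change of PARGi over DMSO for the 33 tested members, grouped by role and ordered within each role; points are edgeR estimates, bars their 95% confidence intervals, filled points called genes. SLC30A2 (2.20) and SLC30A1 (0.65) stand to the right, while most members lie close to 0 and the wide intervals belong to genes with few counts.

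SLC30A1 is the main zinc exporter of the plasma membrane. Its gene spans positions 211571568 to 211578742 of chromosome 1 (GRCh38, minus strand, GENCODE 29). Replicates of DMSO had 112, 114 and 107.0 CPM, in the order of their numbers, and those of PARGi 175.0, 174 and 174 CPM. The 3 treated libraries were almost identical and all lay far above the controls. On the log2 scale the rise was 0.65 (SE 0.027, 95% confidence interval 0.60 to 0.71). Only 3.95% of all tested genes had a larger absolute change.

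SLC30A2 loads zinc into vesicles and is best known from the secretory cells of the mammary gland. Its gene, also on the minus strand of chromosome 1, spans positions 26037252 to 26046133. It had 42, 65 and 62 raw counts in DMSO and 258, 272 and 294 in PARGi, or 0.661, 1.02 and 0.833 CPM against 4.30, 3.68 and 3.65 CPM. Even the lowest treated library was well above the highest control, although all 6 values are low. The log2 fold change was 2.20 (SE 0.14, 95% confidence interval 1.91 to 2.49), and 2 of the 20409 tested genes had a larger rise.

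Metal response elements are the DNA letters through which MTF1 is known to act, so the bases before the start sites of SLC30A1 and SLC30A2 are shown beside those of the metallothionein gene MT2A, a classic zinc-induced promoter. The sequences are the 250 bases before the RefSeq start on GRCh38.p14, written 5′ to 3′ along the gene: chr1:211579162-211579411 (minus strand) for SLC30A1, chr1:26046119-26046368 (minus strand) for SLC30A2 and chr16:56608334-56608583 (plus strand) for MT2A. Capitals mark matches to the core of the metal response element, spelled TGCACNC or TGCGCNC on either strand, with overlapping matches joined.
SLC30A1: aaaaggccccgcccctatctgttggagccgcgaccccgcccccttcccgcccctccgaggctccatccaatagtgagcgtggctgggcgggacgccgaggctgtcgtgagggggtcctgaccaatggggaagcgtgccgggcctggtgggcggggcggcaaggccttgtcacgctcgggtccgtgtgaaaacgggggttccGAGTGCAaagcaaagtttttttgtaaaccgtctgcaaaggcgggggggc
SLC30A2: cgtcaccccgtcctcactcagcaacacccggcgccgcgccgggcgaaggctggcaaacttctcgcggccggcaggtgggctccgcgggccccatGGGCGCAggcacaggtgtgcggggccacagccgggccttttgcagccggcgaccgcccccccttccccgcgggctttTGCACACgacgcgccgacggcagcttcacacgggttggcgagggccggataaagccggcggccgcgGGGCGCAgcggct
MT2A: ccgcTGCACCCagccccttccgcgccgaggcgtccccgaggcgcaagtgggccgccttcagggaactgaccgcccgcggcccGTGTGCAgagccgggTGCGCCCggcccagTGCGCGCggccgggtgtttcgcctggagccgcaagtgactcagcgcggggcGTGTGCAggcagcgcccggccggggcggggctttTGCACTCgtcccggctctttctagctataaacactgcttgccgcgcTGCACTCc

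SLC30A2 had 3 matches, which began 156, 79 and 13 bases before the start site, SLC30A1 had 1 that began 49 bases before it, and MT2A had 7. The whole promoter windows, which run on for 50 bases past the start, held a second match for SLC30A1 and an eighth for MT2A. A match to these letters is common: of 35116 promoter windows of 300 bases, 29.6% held at least 1, 7.51% at least 2 and 1.63% at least 3. The RefSeq start of SLC30A1 lies upstream of the start of the gene in GENCODE 29; of the bases between, the first 50 are in the window and hold its second match, and the rest were not searched. A match is a run of letters and does not show that MTF1 binds there.

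**Figure D2:**
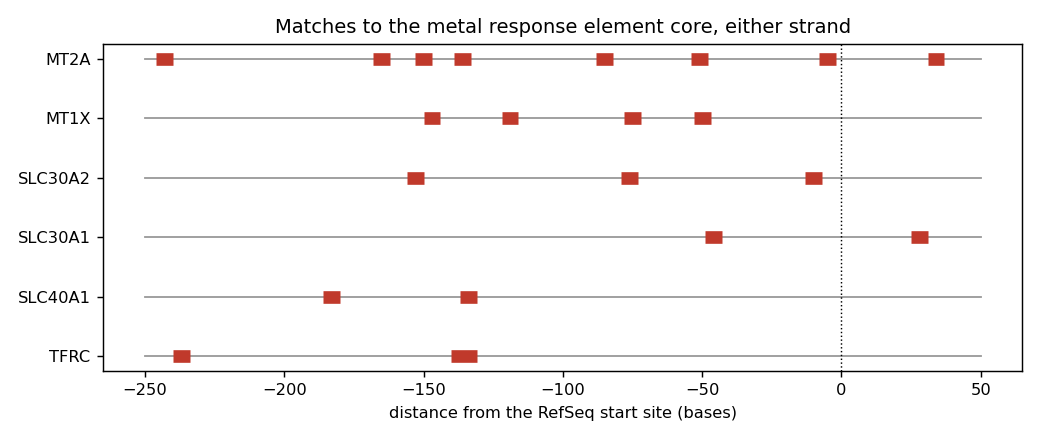
Matches to the metal response element core (red blocks) along the promoter window of 6 genes, as distance in bases from the RefSeq start site (dotted line). MT2A has 8 matches, MT1X has 4 and SLC30A2 has 3, while SLC30A1, SLC40A1 and TFRC have 2 each.

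Among the 9 exporter genes with a RefSeq window, the 5 with a match were SLC30A1, SLC30A2, SLC30A3, SLC30A4 and SLC30A6, and these were also the 5 exporters whose PARGi libraries all lay above the DMSO libraries. The 4 without a match were SLC30A5, SLC30A7, SLC30A9 and SLC30A10, of which SLC30A10 had too few counts to be tested. Groups without overlap were found for 38.0% of all tested genes, but that share counts both directions. The share with all PARGi libraries above is not given here. The exporters were listed with the differences between the groups already in view. Whether the matches have a part in the rises was not tested. This side-by-side count depends on the window: in the 100 bases before the start site, SLC30A1, SLC30A2 and SLC30A3 alone kept a match. There, 2 tested exporters without a match also had all PARGi libraries above the DMSO libraries. Matches among the other roles were found in 7 of 12 importers, 3 of 5 copper genes and 2 of 4 iron genes with a window, most of them not called. Over all tested genes with a window, 14.7% of 7189 genes without a match were called higher, beside 17.8% of 4109 with 1 match, 17.5% of 1327 with 2 and 22.0% of 391 with 3 or more. In the same order, 12.3%, 11.6%, 10.9% and 9.97% were called lower, and the median log2 fold changes were 0.0010, 0.0094, 0.0075 and 0.028. The windows were not matched for base composition. Here and for the members, a gene was counted by its window with the most matches. The share of single windows given before is therefore not the measure to set beside these counts. By gene, a match was common among all tested genes too: 4109, 1327 and 391 genes had 1, 2 and 3 or more, beside 7189 with none. Those are the counts to set beside 5 of 9 exporters and 7 of 12 importers.

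SLC30A3, which fills synaptic vesicles with zinc in neurons, rose as well. It was at 6.87, 6.64 and 6.37 CPM in DMSO against 8.48, 8.07 and 8.35 under PARGi, with no overlap (log2 fold change 0.33, SE 0.064). SLC30A4, a transporter of endosomal vesicles, had a mean of 5.43 ± 0.445 CPM over the DMSO libraries, against 6.22 ± 0.230 over the PARGi libraries (± is the SD of 3 libraries here and below); its libraries did not overlap, but it was not called (log2 fold change 0.20, SE 0.076). The offset for GC content and length, and leaving out DMSO replicate 2, each made it a called gene.

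Exporters of the early secretory pathway and the mitochondria differed little between the groups. SLC30A6, which pairs with SLC30A5 to supply zinc to enzymes in the Golgi, was called at 27.4 ± 0.357 CPM for DMSO against 29.6 ± 0.799 for PARGi (log2 fold change 0.11, SE 0.037), and that call was lost in 6 of 17 alternatives, DESeq2, upper-quartile scaling and the removal of DMSO replicate 1, DMSO replicate 2, PARGi replicate 2 or PARGi replicate 3. Its partner SLC30A5 was not called (0.049, SE 0.033), nor was SLC30A7 of the same compartments (0.022, SE 0.037) or the mitochondrial SLC30A9 (-0.016, SE 0.029). The 95% confidence intervals of these 3 stayed between -0.076 and 0.12. Neither SLC30A8, the exporter of insulin granules, with 1 count in DMSO and 1 in PARGi, nor SLC30A10, a manganese exporter, could be tested. SLC30A10 had 4, 1 and 0 raw counts in DMSO and 2, 3 and 0 in PARGi.

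Per kilobase of exon, SLC30A1 had the highest level of the exporters in both groups, 20.3 ± 0.659 CPM per kb in DMSO, against 31.9 ± 0.102 in PARGi. SLC30A9 (8.74 ± 0.140 in DMSO) and SLC30A5 (8.62 ± 0.348) came next and did not differ beyond their spread; with the longest transcript as length their order turned, to 10.2 and 11.4. SLC30A2 stood at 0.240 ± 0.0513 CPM per kb in DMSO, the lowest of the 8 tested exporters. In PARGi it reached 1.11 ± 0.105, above SLC30A4 at 0.771 ± 0.0284 and below SLC30A3 at 1.39 ± 0.0351. The summed level of all 10 exporters was 49.5, 49.96 and 48.4 CPM per kb in the DMSO libraries and 62.4, 62.8 and 63.0 in the PARGi libraries. Of the mean difference of 13.5 CPM per kb, SLC30A1 accounted for 11.6 and the other exporters together for 1.91. The share of SLC30A1 in the exporter sum was 41.2% ± 0.663 in DMSO and 50.8% ± 0.413 in PARGi.

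**Figure D3:**
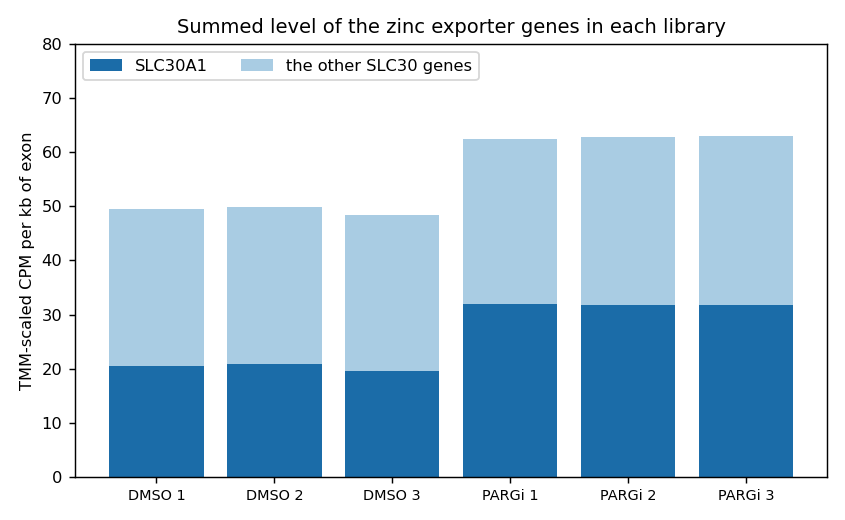
Summed TMM-scaled CPM per kb of exon of the 10 SLC30 exporter genes in each library, split into SLC30A1 (dark) and the other 9 genes (light). The 3 PARGi bars reach 62.4 to 63.0 against 48.4 to 49.96 for DMSO, and the dark part carries most of the difference.

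The importers gave a mixed picture. Of 14 SLC39 genes, 13 were tested, 3 were called higher and 2 lower, and their median log2 fold change was 0.0083. Over all tested genes 13.2% were called higher and 11.0% lower. SLC39A8, which imports zinc and manganese, rose the most: 10.7, 11.1 and 10.4 CPM in DMSO against 14.4, 12.4 and 12.7 CPM in PARGi. PARGi replicate 1 was the highest of the 6 libraries and no library of the groups overlapped (log2 fold change 0.29, SE 0.059). SLC39A14, its close relative and also an importer of iron that is not bound to transferrin, was at 94.7, 95.4 and 93.6 CPM in DMSO against 103, 104 and 105 under PARGi (0.14, SE 0.026). These replicates lay so close together that a difference of 9.83% was far outside their spread.

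SLC39A10 and SLC39A6 are closely related importers of the plasma membrane that form a complex, and SLC39A10 is known as a gene that MTF1 can repress. They went in opposite directions. SLC39A10 fell from 72.2, 70.9 and 70.9 CPM in DMSO to 63.6, 66.4 and 64.1 CPM in PARGi, with every treated library below every control (log2 fold change -0.14, SE 0.028). SLC39A6 rose, with means of 52.7 ± 0.310 and 57.3 ± 0.888 CPM (0.12, SE 0.029). The calls of SLC39A6, SLC39A8, SLC39A10 and SLC39A14 held in each of their 17 alternatives.

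SLC39A12, an importer known mainly from the brain, had the largest fall among the members but almost no reads: 19, 20 and 18 raw counts in DMSO and 12, 9 and 4 in PARGi. The log2 fold change of -1.25 has a standard error of 0.41 and an interval from -2.10 to -0.41. Its call was lost without DMSO replicate 1 or 2 and without PARGi replicate 2 or 3. DESeq2 gave it no adjusted p, and the filter of at least 10 counts in every library left it out, so 15 alternatives gave a call or a loss; over these its value ran from -1.73 to -0.84.

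Importers that hand zinc from internal stores to the cytosol were not called. SLC39A7, the importer of the endoplasmic reticulum and Golgi, had the highest level of the family per length, 81.1 ± 2.91 CPM per kb in DMSO and 81.6 ± 0.565 in PARGi, and its log2 fold change of 0.0083 has an interval from -0.047 to 0.064. SLC39A9 (-0.040, SE 0.028), SLC39A11 (0.024, SE 0.040) and SLC39A13 (-0.048, SE 0.027), which sit in the Golgi and other internal membranes, were not called either. SLC39A3, a plasma membrane importer, was not called (0.10, SE 0.043) but became so with the GC and length offset, alone or with the replicate block, and without DMSO replicate 3. SLC39A4, the importer of the gut lining, was not called, with means of 12.4 ± 0.103 and 12.3 ± 0.498 CPM.

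SLC39A2 and SLC39A5 had very few reads. SLC39A2 was not tested, with 1, 3 and 7 raw counts in DMSO and 8, 8 and 13 in PARGi. SLC39A5, with 9 to 19 raw counts in every library, was not called (-0.20, SE 0.38). SLC39A1, the remaining importer, was counted at 37 to 52 raw counts per library, or 0.184 ± 0.0253 CPM per kb in DMSO and 0.188 ± 0.0053 in PARGi. In GENCODE 29, 60.8% of its exonic bases are shared with ENSG00000285779, a gene on the same strand with 0 counts in all 6 libraries. How reads that overlap 2 genes were counted is not given in the sources used here, so the low level of SLC39A1 is uncertain.

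**Figure D4:**
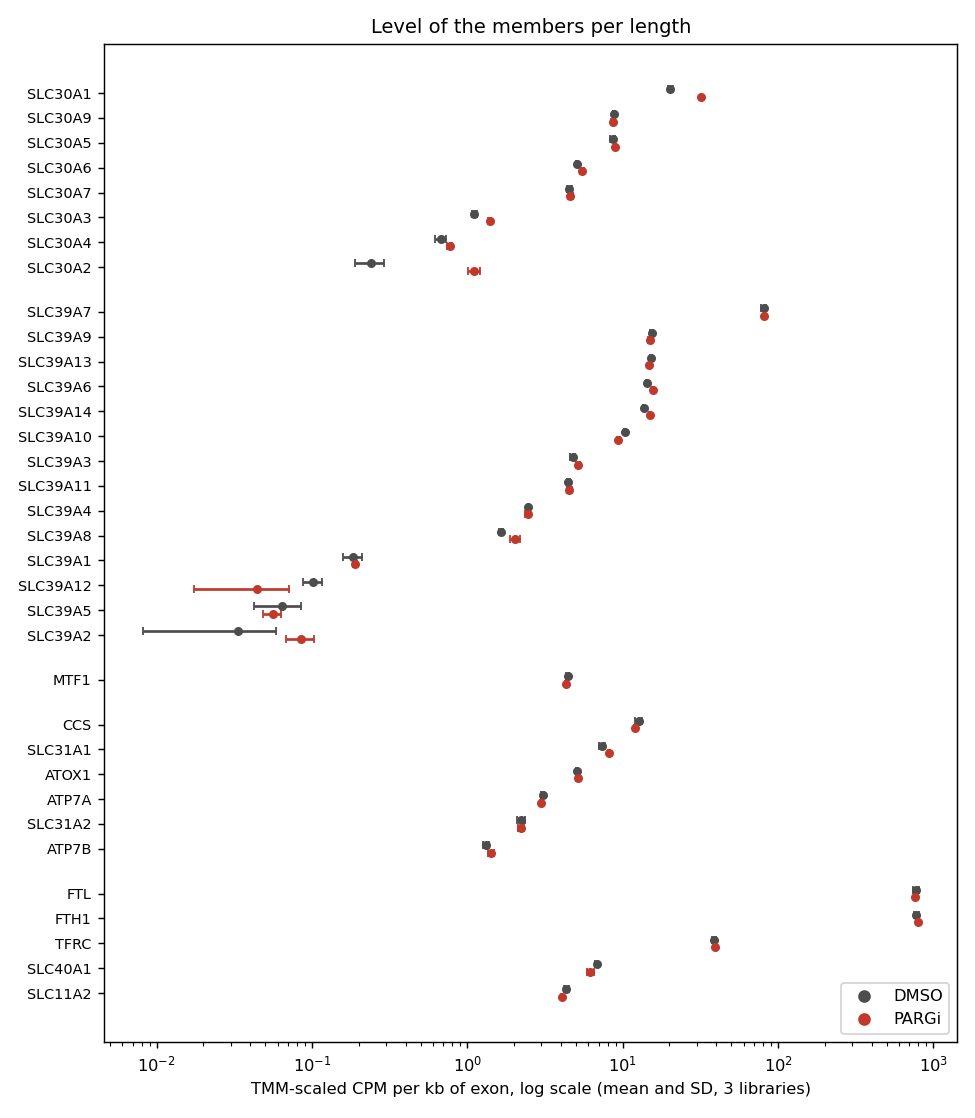
Level of the members per length as TMM-scaled CPM per kb of exon on a log axis, mean and SD of 3 libraries, DMSO in grey and PARGi in red; SLC30A8 and SLC30A10, with at most 4 counts in a library, are left out. The ferritin genes lie highest, between 763 and 798 CPM per kb, and SLC39A7 leads the zinc transporters as counted, at 81.1 in DMSO. The level of SLC39A1 is uncertain. Among the exporters, SLC30A2 shows the widest gap between the groups.

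MTF1, the sensor, had 35.2, 36.2 and 34.9 CPM in the DMSO libraries against 34.8, 34.3 and 35.2 in the PARGi libraries, and the groups overlapped. Its log2 fold change was -0.027 (SE 0.034, 95% confidence interval -0.097 to 0.044). The activity of MTF1 depends on zinc binding and is not read from its transcript level. Metallothioneins, which are among the genes that MTF1 is known to turn on, were counted as 11 genes. The 4 with enough reads, MT1G, MT1E, MT2A and MT1X, were all called higher, beside 13.2% of all tested genes. The other 7 were listed at 0 in every library. MT1G rose by 2.50, MT1E by 1.29 and MT2A by 1.14 on the log2 scale. The family summed to 579, 574 and 529 CPM in the DMSO libraries against 1289, 1255 and 1260 in the PARGi libraries, a mean difference of 708 CPM. These genes are close copies of each other, and how reads shared by several genes were counted is not given in the sources used here, so a listed 0 does not show that a gene is silent, and the sum covers the 4 genes with counts alone.

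**Figure D5:**
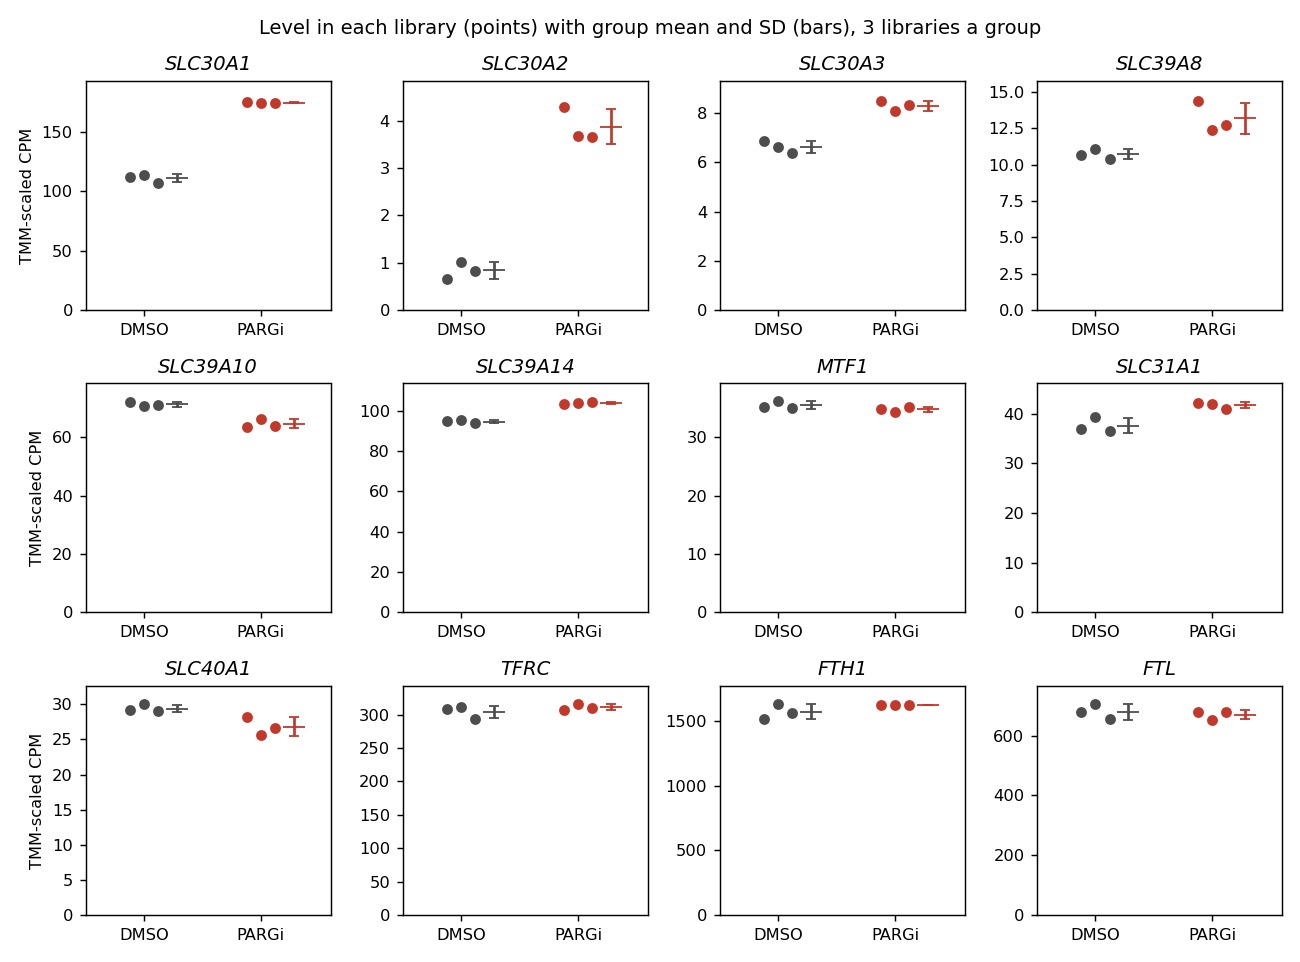
TMM-scaled CPM of 12 members in each library (points, replicates 1 to 3 from left to right) with the group mean and SD (bars); every axis starts at 0. SLC30A1 and SLC30A2 are clearly separated, SLC30A3, SLC39A8, SLC39A10, SLC39A14, SLC31A1 and SLC40A1 are separated by less, and MTF1, TFRC, FTH1 and FTL overlap.

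Copper enters cells through SLC31A1, is carried by the chaperones ATOX1 and CCS, and leaves the cytosol through the pumps ATP7A and ATP7B. Of these 6 genes with SLC31A2, 1 was called, beside 24.3% of all tested genes. SLC31A1 rose from 36.9, 39.4 and 36.5 CPM in DMSO to 42.3, 41.9 and 41.0 CPM in PARGi (log2 fold change 0.15, SE 0.035), and the groups did not overlap. Its neighbour on chromosome 9, SLC31A2, a relative of internal membranes, was at 5.57 ± 0.329 and 5.56 ± 0.261 CPM, and 63.1% of its exonic bases lie opposite the gene FKBP15 on the other strand.

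The pump ATP7A was at 32.9, 34.1 and 32.9 CPM under DMSO against 32.9, 33.1 and 32.2 under PARGi, with overlapping groups (-0.025, SE 0.035). Its relative ATP7B had a log2 fold change of 0.11 (SE 0.052) and ATOX1, the chaperone that feeds both pumps, one of 0.029 (SE 0.038). CCS, the chaperone that loads copper into superoxide dismutase SOD1, had the highest level per length of the copper genes, 12.7 ± 0.673 CPM per kb in DMSO and 11.9 ± 0.0764 in PARGi (-0.088, SE 0.039). ATP7B, ATOX1 and CCS were not called. CCS became a called gene, as lower, with upper-quartile scaling and without DMSO replicate 2, and ATP7B, as higher, with the GC and length offset, alone or with the replicate block.

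Iron genes stayed within narrow limits. Of 5, 2 were called lower, beside 11.0% of all tested genes called lower and 24.3% called in either direction. Both transport ferrous iron, and neither call held in all alternatives. SLC40A1, or ferroportin, the only known cellular exporter of iron, fell from 29.2, 30.0 and 29.1 CPM in DMSO to 28.3, 25.7 and 26.6 CPM in PARGi (log2 fold change -0.13, SE 0.040). PARGi replicate 1 came within 1 CPM of the controls, and the call was lost without PARGi replicate 2 or without PARGi replicate 3. SLC11A2, which moves iron out of endosomes and into gut cells, averaged 44.0 ± 1.68 CPM under DMSO against 41.2 ± 0.303 under PARGi (-0.094, SE 0.034). That call was lost in 9 of 17 alternatives: DESeq2, limma-voom, no filter, the replicate block, and the removal of each library except DMSO replicate 3.

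TFRC, the transferrin receptor through which most cells take up iron, had 308, 311 and 294 CPM in the DMSO libraries against 308, 316 and 310.3 in the PARGi libraries. The groups overlapped, and the log2 fold change of 0.034 has an interval from -0.020 to 0.088. The ferritin genes, whose proteins form the shell that stores iron, were the most abundant members per length. FTH1, the heavy chain, had 1518, 1633 and 1564 CPM under DMSO against 1620.0, 1621 and 1622 under PARGi (0.044, SE 0.025). FTL, the light chain, had 679, 707 and 654 CPM under DMSO against 678, 653 and 680.2 under PARGi (-0.021, SE 0.027). Neither was called, and in both genes the groups overlapped. Per kilobase of all annotated exons, FTH1 stood at 774 ± 28.5 and FTL at 774 ± 29.8 CPM per kb in DMSO, but that likeness rests on the length used: with the longest transcript FTH1 stood at 1279 and FTL at 774. FTH1 was called higher in 3 alternatives, the GC and length offset with and without the replicate block (0.11 each) and without DMSO replicate 2 (0.073). Processed copies of FTH1 are numerous in the genome; the 25 in the table together held 0.239% of the count of FTH1.

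Iron regulatory proteins recognise a hairpin whose loop reads CAGTGN in DNA letters, with a bulged C on its 5′ side. Of the 5 iron genes, 4 carry a match in the untranslated ends of their longest coding transcript in GENCODE 29, and the matches are shown because this is the feature through which these messengers are known to be regulated together. The search asked for a C, 5 bases, the loop and 5 bases that pair with the first 5, G opposite T included; loops are in capitals. Only the longest coding transcript of each gene was read and all 5 pairs were asked for, so the search can miss hairpins. SLC11A2 had no match, which does not show that it lacks such a hairpin. This search was added after the values were seen.
The matches lie at chr11:61967580-61967596 (minus strand) for FTH1, chr19:48965341-48965357 (plus) for FTL, chr2:189580667-189580683 (minus) for SLC40A1 and chr3:196050985-196051001 (minus) for TFRC, on GRCh38.
FTH1, 5′ end: cttcaaCAGTGCttgga
FTL, 5′ end: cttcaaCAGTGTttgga
SLC40A1, 5′ end: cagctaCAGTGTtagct
TFRC, 3′ end: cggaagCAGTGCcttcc

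TFRC had 4 such matches in its 3′ end, of which the first is printed. The pattern was found in 260 (1.32%) of 19702 longest coding transcripts, and in 1 member besides these 4, the zinc importer SLC39A9. None of the members with a hairpin match in this search was called except SLC40A1. SLC11A2, for which the search found no match, was also called lower (-0.094, SE 0.034). A level of RNA does not report the translation that the hairpins of FTH1, FTL and SLC40A1 control.

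Other genes of the pathways were counted from a list drawn up for this purpose. The share to set beside these counts is that of all tested genes. Of those, 24.3% were called, 13.2% as higher and 11.0% as lower in PARGi. Of 3 further zinc genes, 1 was called: GPR39, a zinc-sensing receptor, rose by 0.21 (SE 0.061) on the log2 scale, with means of 7.35 ± 0.134 and 8.50 ± 0.0495 CPM. Of 11 further copper genes, 10 were tested, 1 was called higher and 1 lower. These were SOD1, the copper and zinc superoxide dismutase (0.13, SE 0.025), and LOX, the copper enzyme that cross-links collagen (-0.16, SE 0.035). Of 27 further iron genes, 21 were tested, 7 were called higher and 3 lower, at a median of 0.057. The largest changes among the 10 called were in HMOX1, the haem-degrading oxygenase, from a mean of 37.7 to 45.2 CPM (0.26, SE 0.034), FBXL5, the iron-sensing ubiquitin ligase subunit that removes iron regulatory proteins (0.19, SE 0.039), and SLC25A37, the mitochondrial iron importer mitoferrin-1 (0.18, SE 0.032). None of the called copper and iron genes of this list, nor GPR39, reached a 1.2-fold change.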

How the data were processed

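The 6 libraries of U2OS cells were grouped by their titles, 3 per group. Each deposited file lists unnormalised read counts by Ensembl gene, without a header; per the labels' protocols the libraries came from a strand-specific total RNA kit, and per the submitters' processing notes cutadapt 1.18, STAR 2.7.3a, SAMtools 1.9, DESeq2, deepTools and build hg38 were used, with no role or order given. The annotation release, the counting column and the treatment of reads shared by several genes are not given in the sources used here. Antisense genes lying inside the exons of abundant genes had a median summed count of 34, against 50815 for those genes, so the counts were taken as stranded.

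All 60708 rows named a gene, and the 36 members each matched a single row. Positions and exonic lengths came from GENCODE 29 (GRCh38), promoter sequences from RefSeq (GRCh38.p14). edgeR 4.0.16 in R 4.3.3 (filterByExpr, TMM scaling, glmQLFit, two-sided glmQLFTest on treatment) was fitted to the 20409 genes that passed the filter, with Benjamini-Hochberg adjustment over all of them and a threshold of 0.05. Standard errors are the absolute log2 fold change over the square root of F. Figures were drawn with matplotlib 3.10.9.

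Depth ran from 60286931 to 80605145 counts per library. No molecular identifiers are recorded, and duplicate reads cannot be told from separate molecules. The scripts were tested on simulated counts. Alternatives were DESeq2 1.42.0, limma-voom (limma 3.58.1), 2 other scalings, 2 other filters, protein-coding genes alone, a robust fit, a replicate block, a GC and length offset with and without that block, stricter thresholds, and each library left out in turn. The members and all lists were chosen with earlier results of these data known. Every member is named; those called with at least a 1.2-fold change, and 13 members fixed by name, are given in every library. Of the other pathway genes, up to 3 called genes for each metal with the largest absolute change are named. Any further gene was chosen after its values were seen. Protein sequences were not used here.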

Additional observations from a re-analysis of the deposited data

How the results depend on the processing

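SLC30A1 and SLC30A2 were called in each of their 17 alternatives, with log2 fold changes from 0.62 to 0.67 and from 2.06 to 2.35. They were also the 2 members called by edgeR's glmTreat against a 1.2-fold change, both higher; that test called 0 members as lower and 4 pathway genes. The count of members called lower was the least stable: 2 with DESeq2, 1 at an adjusted p under 0.01, and 1 to 4 with a single library left out (1 without PARGi replicate 2 or PARGi replicate 3, 2 without DMSO replicate 1). The 12 calls became 8 to 13 with a library left out. With the replicate block 11 members were called. Deviations of same-numbered libraries from their group means had correlations of -0.0059, 0.016 and -0.0078. DMSO replicate 1 correlated best with PARGi replicate 3. These values show no pairing by number. They cannot exclude a shared culture or day, since they are taken over all tested genes, weakly counted ones included. The GC and length offset called 16 members. No called member changed sign. Upper-quartile scaling moved the median of all genes by -0.0245, and SLC30A7, SLC39A7, SLC39A11 and SLC31A2, none of them called, changed sign under it. Within 100 bases before the start site, 7 members held a metal response element core in place of 17. SLC39A1, SLC39A2, SLC39A5 and SLC39A12 had few counts, so their estimates are imprecise; why the count of SLC39A1 is low was not tested. DESeq2 gave SLC39A12 no adjusted p, so its 2 members called lower do not include it.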

Other observations

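None of the tested genes beside SLC30A1 and SLC30A2 was called higher. Of 3 tested by edgeR within 100 kb of SLC30A1, NEK2, the most abundant, averaged 66.2 CPM under DMSO against 67.2 under PARGi (log2 fold change 0.022, SE 0.029), and FDPSP8 (-0.13, SE 0.29) and NEK2-DT (-0.21, SE 0.45) were not called either. Of 3 tested within 100 kb of SLC30A2, 1 was called, PDIK1L, and it was lower (-0.16, SE 0.054). The others were PAFAH2 (-0.066, SE 0.051) and EXTL1, whose estimate is wide (0.33, SE 0.22). These genes were listed after their values were seen.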
